A study of Mus musculus with 24 samples.

Results

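Macrophages and antigen presentation in brown adipose tissue (BAT) were followed through 10 marker genes: Adgre1, Csf1r, Mrc1, Cd68, Lyz2, Ctss, C1qa, Cd74, H2-Aa and H2-Ab1. The rule names them by gene symbol, and they were proposed with earlier results of these data known. All 10 were among the 12615 genes of the count table, and all 10 were among the 12485 genes that passed the filter on low counts. BAT RNA of 24 mice was measured with a 3′ tag kit, which yields 1 read position per transcript next to its polyadenylated end, with 6 mice in each of 4 groups. Mice of all 4 groups carried floxed alleles of TBLR1 and TBL1, which encode subunits of a transcriptional corepressor complex, and all received tamoxifen. BATdKO mice (TBLR1 fl/fl, TBL1 fl/fl, Ucp1CreERT2 positive) also carried a tamoxifen-inducible Cre recombinase under the Ucp1 promoter, and Cre- mice (Ucp1CreERT2 negative) did not. The recombinase is expressed in brown adipocytes and not in macrophages, so that macrophages of BATdKO mice are not themselves the targeted cells. Mice were raised at 22°C. One part of each genotype was moved to 30°C for 4 days, and the other was cooled through 18°C, 16°C and 12°C for 1 day each and then kept at 8°C for 6 days by the labels, or 3 days by the study's text. Temperature exposure started 3 weeks after tamoxifen. The labels describe female mice, and a legend of the study describes males. The study injected tamoxifen at 5 weeks of age in its single TBLR1 knockout line and refers to that protocol for the double knockout. The labels of these samples give 5 years. The background is C57BL6/N by the study, and the age at sampling is not stated in the sources used here.

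Tissue macrophages are phagocytic cells that clear dying cells and debris, depend on signalling through the CSF1 receptor, and share adipose tissue with adipocytes, vessels and nerves. They can also present antigen: MHC class II molecules are assembled in the endoplasmic reticulum on the invariant chain CD74, the chain is cut in endosomes by proteases such as cathepsin S, and the emptied groove is loaded with peptide and carried to the cell surface for CD4+ T cells. Class II is made by macrophages, dendritic cells and B cells alike, under the control of the co-activator CIITA. F4/80 (Adgre1) is used to mark macrophages more closely, and the mannose receptor (Mrc1) is also used as a macrophage marker.

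H2-Aa, Cd68 and Ctss are shown by their promoters as 1 class II gene, 1 phagosome gene and 1 protease of the class II pathway. RefSeq promoters (250 bases before to 50 after the start, GRCm38.p6) were matched for 5 of the 10 members, and these were Mrc1, Cd68, Lyz2, Ctss and H2-Aa. Capitals mark the CCAAT letters (the core of the Y box of class II promoters) and the GAGGAA letters (the core of a PU.1 site, PU.1 being the lineage factor of macrophages), each on either strand, so that ATTGG and TTCCTC are marked too. The sequences run 5′ to 3′ on the strand of the gene.
H2-Aa: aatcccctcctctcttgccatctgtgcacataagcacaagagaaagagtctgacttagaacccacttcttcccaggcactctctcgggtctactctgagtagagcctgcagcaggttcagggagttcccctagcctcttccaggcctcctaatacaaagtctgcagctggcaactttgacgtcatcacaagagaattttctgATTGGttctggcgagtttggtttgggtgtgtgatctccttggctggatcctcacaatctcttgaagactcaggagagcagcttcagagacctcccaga
Cd68: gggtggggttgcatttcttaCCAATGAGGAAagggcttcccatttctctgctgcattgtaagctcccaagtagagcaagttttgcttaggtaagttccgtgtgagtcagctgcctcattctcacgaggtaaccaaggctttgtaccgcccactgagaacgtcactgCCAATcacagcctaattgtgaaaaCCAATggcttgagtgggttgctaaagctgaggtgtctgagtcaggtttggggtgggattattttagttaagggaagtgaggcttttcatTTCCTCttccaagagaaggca
Ctss: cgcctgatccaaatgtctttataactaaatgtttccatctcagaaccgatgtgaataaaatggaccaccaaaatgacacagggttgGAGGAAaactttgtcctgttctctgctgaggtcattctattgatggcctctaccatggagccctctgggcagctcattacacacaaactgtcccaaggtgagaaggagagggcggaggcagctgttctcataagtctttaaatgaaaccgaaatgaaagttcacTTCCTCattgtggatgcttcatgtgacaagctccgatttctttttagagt
The H2-Aa window lies at chr17:34287774-34288073 on the minus strand and held 1 ATTGG, starting at position -48 from the transcript start. The Cd68 window (chr11:69666121-69666420, minus strand) held CCAAT at 3 positions and GAGGAA or its complement at 2, the first CCAAT running directly into a GAGGAA without sharing a base with it. The Ctss window (chr3:95526536-95526835, plus strand) held 2 matches to GAGGAA and 0 to CCAAT. The Lyz2 window held 0 matches to either motif, and the Mrc1 window held 1 CCAAT and 3 GAGGAA. Among all 32851 promoters of the table, 37.4% held CCAAT and 28.3% held GAGGAA, beside 3 of the 5 members for each motif.

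The libraries held 699703 to 11527643 counts, with a median of 6644364.5. The lowest total belonged to Cre- 30°C mouse m4 and the next lowest was 2738613. Levels are given as CPM, counts per M of the TMM-scaled library size. The tissue label was checked first, and all libraries held abundant hepatocyte transcripts. The share of RNA from each cell type was not tested. Alb, the plasma albumin gene, was measured at 5686 to 14390 CPM, above Ucp1, the uncoupling protein of brown adipocytes, in each of the 24 libraries (28.9 to 548 CPM at 30°C and 968 to 2076 CPM at 8°C). Genes of the Mup family, urinary proteins made in liver, took 11.5% to 17.5% of the counts. Clec4f, a lectin of liver-resident macrophages (Kupffer cells), was found in all 24 libraries at 16.0 to 27.4 CPM. The 5 Kupffer cell markers Clec4f, Vsig4, Cd5l, Marco and Timd4 summed to 98.5 to 146 CPM in mice labelled Cre- at 30°C, 90.8 to 127 at 8°C, 90.5 to 136 in mice labelled BATdKO at 30°C and 98.0 to 134 at 8°C. Vsig4, Cd5l and Marco also stand on the second macrophage list used below, and Timd4 on the list of resident macrophages. The sum is therefore not particular to Kupffer cells. Cd5l made up its largest part, with group means of 65.6 to 75.6 CPM. Of these 5 markers, 0 were called in either cold comparison, the smallest unadjusted p being 0.0686 (Cd5l in mice labelled Cre-). The marker genes described here are expressed by macrophages of BAT and of liver, and the part of each, or of other cells, in their counts was not tested. The targeted genes were higher under the knockout label, not lower. At 8°C Tbl1xr1 (TBLR1) was at 18.2, 21.0 and 24.6 CPM (lowest, median and highest) in libraries labelled Cre- and at 33.8, 39.5 and 44.3 CPM in libraries labelled BATdKO, with no overlap (log2 fold change 0.93, adjusted p = 0.00348). Tbl1x (TBL1) was at 38.7, 40.7 and 43.8 CPM and at 42.4, 54.3 and 63.6 CPM there (0.39, adjusted p = 0.0633). At 30°C Tbl1xr1 was at 16.5, 21.7 and 38.6 CPM and at 17.0, 34.5 and 42.0 CPM (0.44, adjusted p = 0.36), and Tbl1x at 31.4, 39.9 and 53.5 CPM and at 39.7, 55.1 and 59.9 CPM (0.35, adjusted p = 0.205). Which exons are floxed is not given in the sources used here, and a 3′ tag outside them does not report the deletion. An exchange of the genotype labels, tags outside the deleted exons and other sources of the higher level cannot be told apart here. Cre- and BATdKO are therefore used below as the labels of the libraries, and an exchange would turn the sign of every genotype difference and interaction and swap the names of both cold comparisons. At 30°C, Cre- mouse m6 (Tbl1xr1 38.6 CPM, Tbl1x 53.5 CPM) and BATdKO mouse m6 (17.0 and 39.7 CPM) each lay among the libraries of the other label for both genes. For Ucp1, BATdKO m6 (84.7 CPM) lay among the libraries labelled Cre-, and Cre- m6 (548 CPM) was the highest of all libraries at 30°C. BATdKO mouse m6 also had the highest ratio of Apoa1 to Alb CPM, 0.949, the other 23 libraries lying between 0.305 and 0.643. Part of the results that rest on these libraries is given below with and without them.

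**Figure D1:**
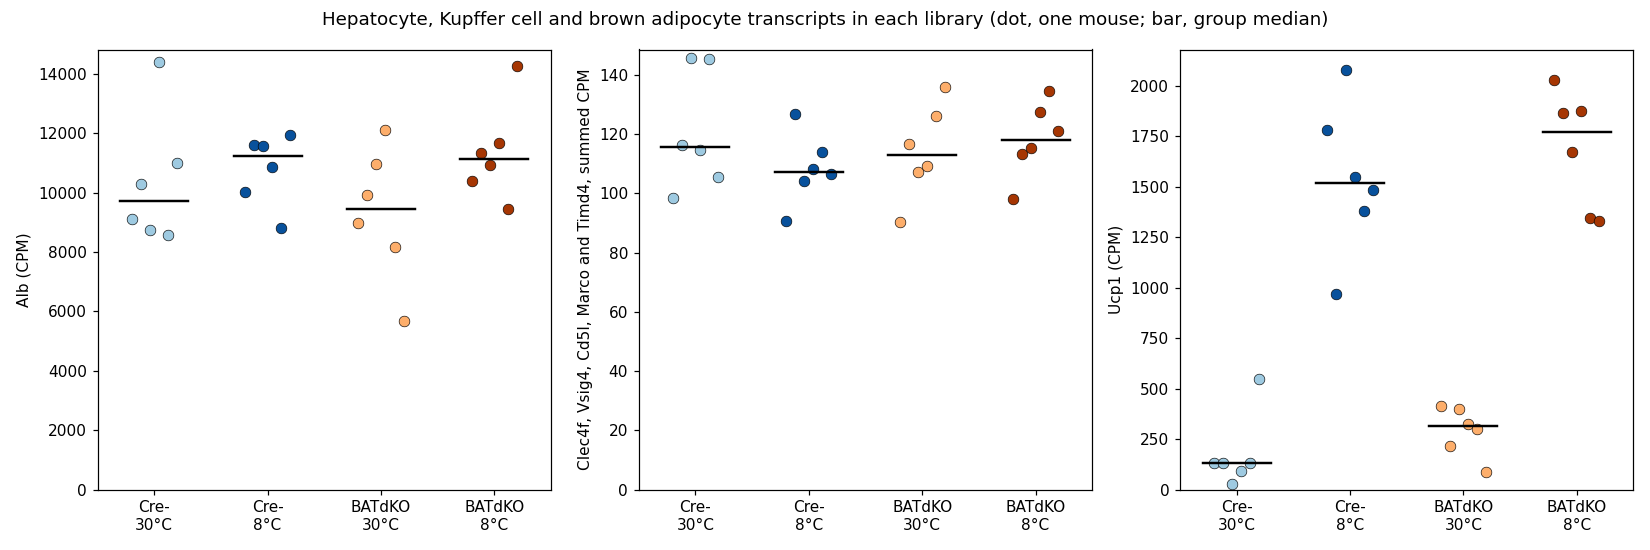
Levels of Alb (left), the summed Kupffer cell markers (middle) and Ucp1 (right) in CPM on linear axes for the 4 groups, with 1 dot per mouse and a bar at the group median. Alb and the Kupffer cell markers overlap among all 4 groups, and Ucp1 at 8°C (968 to 2076 CPM) lies above every library at 30°C (28.9 to 548 CPM).

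With 1 tag per transcript, counts do not grow with transcript length, so that levels can be set beside each other between genes. Csf1r was the most abundant member by mean, at 61.3 ± 9.76 CPM (SD, n = 24), higher than 87.7% of tested genes. Cd74 (42.0 ± 10.4), C1qa (41.1 ± 8.02), Lyz2 (38.2 ± 10.8), H2-Aa (33.5 ± 10.9), H2-Ab1 (30.6 ± 8.65), Ctss (28.1 ± 3.34) and Mrc1 (26.3 ± 3.31) followed. Cd68 (6.24 ± 1.33) and Adgre1 (3.23 ± 0.929) were the lowest, and Adgre1 rested on as few as 1 and at most 51 counts per library. Neighbours in this order mostly overlapped. Cd74 was above C1qa in 12 of 24 libraries and C1qa above Lyz2 in 14, whereas Csf1r was above Cd74 in 22, Mrc1 above Cd68 in 24 and Cd68 above Adgre1 in 23. H2-Aa, H2-Ab1 and Lyz2 varied 3.51-fold, 2.60-fold and 3.10-fold between the lowest and the highest library, against 1.73-fold for Ctss and 1.74-fold for Mrc1. The level of Csf1r could hold reads of Hmgxb3, which shares exon sequence with it on the other strand.

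**Figure D2:**
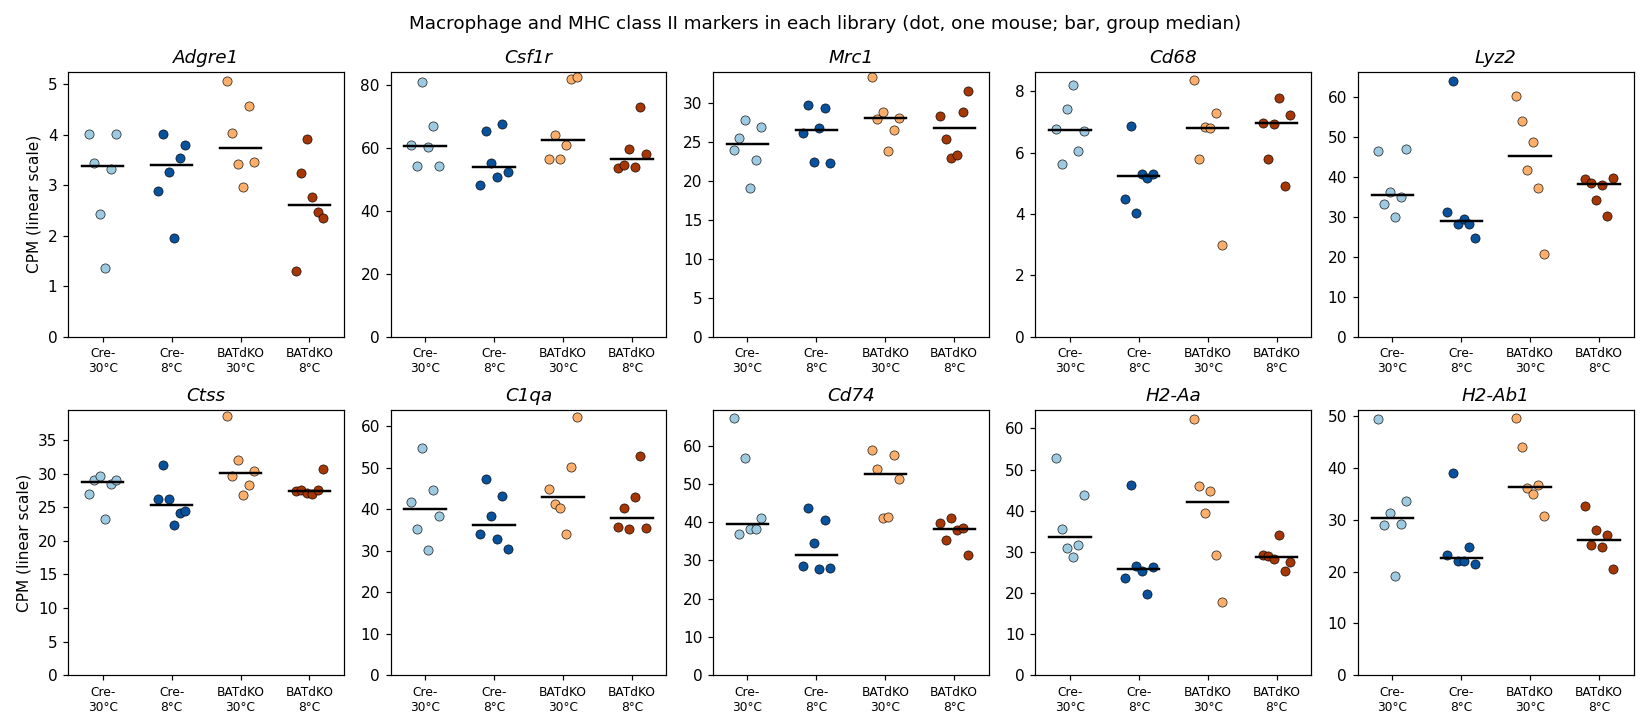
CPM of the 10 markers on linear axes from 0, with 1 dot per mouse and a bar at the median of each group of 6. The class II genes Cd74, H2-Aa and H2-Ab1 had lower medians at 8°C than at 30°C in both genotypes, and the groups overlap for every marker.

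Cold exposure was first asked within mice labelled Cre-, 8°C against 30°C. In both genotypes, the library identifiers of the 30°C mice and of the 8°C mice form separate runs of numbers. What these numbers stand for is not stated. A difference in library handling or in housing time cannot be told apart from temperature in any cold comparison here. The class II genes had the most negative differences of the 10 members, and Cd74 alone passed the adjusted threshold of 0.1. In total 1 of 10 members was called lower and 0 higher (edgeR quasi-likelihood test, Benjamini-Hochberg adjustment over all genes), and 448 of 12485 tested genes were called lower, 3.59%. At an unadjusted p under 0.05, 3 members were lower, Cd74, H2-Aa and H2-Ab1, beside 8.95% of tested genes. The median log2 fold change of the members was -0.17 and that of all tested genes -0.02, and 9 of 10 members had a negative fitted value beside 54.0% of all tested genes. In bulk tissue, fewer cells of a type and less RNA per cell cannot be told apart.

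Cd74, the invariant chain that guides class II assembly, was at 36.8, 39.6 and 67.3 CPM (lowest, median and highest mouse) in mice labelled Cre- at 30°C and at 27.8, 31.5 and 43.7 CPM at 8°C. The 4 lowest mice at 8°C were below all mice at 30°C, and the ranges overlapped. Its log2 fold change was -0.48 (SE 0.145, adjusted p = 0.0448), a level 28.5% lower with a 95% interval of 12.1% to 41.9% lower. The call was lost when any of 5 mice was left out, with an adjusted p of 0.164 without Cre- 30°C m1, 0.115 without Cre- 30°C m3, 0.109 without Cre- 8°C m1, 0.123 without Cre- 8°C m4 and 0.117 without Cre- 8°C m6 (log2 fold changes of -0.34 to -0.44). A model with the Cre- groups alone gave -0.48 with an adjusted p of 0.109.

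H2-Aa, the class II alpha chain, was at 28.7, 33.6 and 52.8 CPM at 30°C and at 19.6, 25.7 and 46.2 CPM at 8°C in mice labelled Cre-. In the cold, 5 of 6 mice were below every mouse at 30°C, and mouse m2 stood apart at 46.2 CPM. The log2 fold change was -0.46 (SE 0.214, adjusted p = 0.239). Without Cre- 8°C m2 it was -0.66 with an adjusted p of 0.0499, and without Cre- 30°C m1 it was -0.33 with an adjusted p of 0.444. H2-Ab1, the beta chain that pairs with it, was at 19.1, 30.3 and 49.6 CPM at 30°C and at 21.4, 22.6 and 39.1 CPM at 8°C, the highest again in mouse m2 and the lowest at 30°C in the shallow library m4. Its log2 fold change of -0.40 (SE 0.162, adjusted p = 0.155) passed the threshold without Cre- 8°C m2 (-0.56, adjusted p = 0.0189) or without Cre- 30°C m4 (-0.45, adjusted p = 0.0945), and went to -0.24 (adjusted p = 0.421) without Cre- 30°C m1. Both genes thus had a value on the lower side with or without these mice, and a call that depended on 1 library. The members called numbered 3 without Cre- 8°C m2, 2 without Cre- 30°C m4 and 0 without each of the 5 mice named for Cd74.

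The macrophage receptors differed less in mice labelled Cre-. Csf1r, the receptor for the growth factor CSF1, was at 54.1, 60.5 and 80.7 CPM at 30°C and at 48.2, 53.8 and 67.6 CPM at 8°C. The groups overlapped, and the log2 fold change was -0.15 (95% interval -0.40 to 0.09). Mrc1, the mannose receptor that takes up glycoproteins, was at 19.1, 24.8 and 27.8 CPM at 30°C and at 22.3, 26.5 and 29.8 CPM at 8°C, the only member with a positive fitted difference (0.07, interval -0.14 to 0.27). Adgre1, which encodes F4/80, was at 1.37, 3.38 and 4.01 CPM at 30°C and at 1.95, 3.40 and 4.01 CPM at 8°C, with nearly the same range in both groups. Its group means were 3.10 and 3.24 CPM, higher in the cold, whereas the log2 fold change fitted to the counts was -0.09 (interval -0.51 to 0.32), so that Adgre1 shows no direction. The fitted value turned to 0.04 without Cre- 8°C m4. C1qa, a chain of the first complement component, was at 30.1, 40.0 and 54.7 CPM at 30°C and at 30.5, 36.2 and 47.3 CPM at 8°C (-0.15, interval -0.44 to 0.14).

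Of the phagosome and lysosome proteins, Cd68, a glycoprotein of late endosomes, was at 5.64, 6.73 and 8.20 CPM at 30°C and at 4.03, 5.23 and 6.86 CPM at 8°C in mice labelled Cre-. In the cold 5 of 6 mice were below all mice at 30°C, and mouse m2 was again the exception. The log2 fold change was -0.34 (SE 0.175, adjusted p = 0.308). Lyz2, the lysozyme of myeloid cells, was at 30.1, 35.6 and 46.9 CPM at 30°C and at 24.7, 28.9 and 64.2 CPM at 8°C. Mouse m2 gave the 64.2 CPM and the other 5 mice were at or below 31.2 CPM (log2 fold change -0.18, interval -0.61 to 0.24). Without m2 it was -0.46 (adjusted p = 0.122). Lyz1, a paralog next to Lyz2, could take or give reads depending on how multiply aligned reads were counted. Ctss, the protease that trims the invariant chain, was at 23.2, 28.7 and 29.7 CPM at 30°C and at 22.4, 25.3 and 31.3 CPM at 8°C (-0.14, interval -0.32 to 0.04).

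In mice labelled BATdKO, cold exposure lowered the class II genes H2-Ab1 and Cd74 past the threshold. Here 2 of 10 members were called lower and 0 higher, beside 413 of 12485 tested genes called lower, 3.31%. At an unadjusted p under 0.05, 4 members were lower, Adgre1, Cd74, H2-Aa and H2-Ab1, beside 8.66% of tested genes. The median of the members was -0.22 on the log2 scale and that of all genes -0.003, and 9 of 10 members were negative beside 50.5% of all tested genes. The cold comparisons in the 2 genotypes share no mice.

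H2-Ab1 was at 30.8, 36.4 and 49.7 CPM in mice labelled BATdKO at 30°C and at 20.5, 26.2 and 32.7 CPM at 8°C. In the cold 5 of 6 mice were below every mouse at 30°C, and only the highest, m1 at 32.7 CPM, overlapped, lying above BATdKO 30°C m6. The log2 fold change was -0.57 (SE 0.161, adjusted p = 0.0398), 32.6% lower with an interval of 15.2% to 46.4%. Over 24 fits that each left out 1 mouse the call was lost in 1, without BATdKO 30°C m1 (-0.49, adjusted p = 0.103). Cd74 was at 41.1, 52.6 and 58.9 CPM at 30°C and at 31.5, 38.3 and 41.2 CPM at 8°C, so that 5 cold mice were below all warm mice. Its log2 fold change of -0.44 (SE 0.144, adjusted p = 0.0828) lost the call without any of 7 mice labelled BATdKO, with an adjusted p of 0.164, 0.143, 0.143 and 0.111 without m1, m2, m5 and m6 at 30°C and of 0.154, 0.137 and 0.169 without m2, m4 and m6 at 8°C. The members called numbered 0 without BATdKO 30°C m1 and 1 without m2 or m5 at 30°C or m2, m4 or m6 at 8°C.

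H2-Aa was at 17.7, 42.1 and 62.2 CPM in mice labelled BATdKO at 30°C and at 25.4, 28.6 and 34.1 CPM at 8°C. The warm group was the widest of the 4, with BATdKO 30°C m6 at the bottom, while the cold group was narrow. The log2 fold change was -0.47 (SE 0.213, adjusted p = 0.251), without m6 it was -0.63 with an adjusted p of 0.0507, and without BATdKO 30°C m1 it was -0.30 with an adjusted p of 0.505. Leaving out m6 of both labels at 30°C, which had the targeted-gene levels of the other label, gave -0.63 with an adjusted p of 0.0479, while Cd74 went to an adjusted p of 0.104 and the count of members called stayed at 2. In the same fit H2-Ab1 was at -0.64 (adjusted p = 0.0226) in mice labelled BATdKO, and Cd74 at -0.53 (adjusted p = 0.0259) in the cold in mice labelled Cre-.

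Among the other members in mice labelled BATdKO, Adgre1 had the most negative difference, from 2.97, 3.74 and 5.06 CPM at 30°C to 1.31, 2.61 and 3.92 CPM at 8°C. Of the cold mice 4 were below all warm mice (log2 fold change -0.46, SE 0.208, adjusted p = 0.25). Lyz2 was at 20.7, 45.3 and 60.3 CPM at 30°C and at 30.2, 38.3 and 39.9 CPM at 8°C (-0.26, interval -0.68 to 0.16). As with H2-Aa, the cold range lay inside the warm range. Csf1r was at 56.3, 62.4 and 82.3 CPM at 30°C and at 53.6, 56.3 and 72.7 CPM at 8°C (-0.19, interval -0.43 to 0.05). C1qa was at 34.1, 43.1 and 62.3 CPM at 30°C and at 35.3, 38.0 and 52.9 CPM at 8°C (-0.16, interval -0.45 to 0.13). Both were highest at 30°C in mouse m6, the library that was lowest in H2-Aa, Lyz2 and Cd68. Ctss was at 26.8, 30.1 and 38.7 CPM at 30°C and at 27.0, 27.5 and 30.7 CPM at 8°C, where 5 of the 6 mice fell within 26.95 to 27.63 CPM (-0.15, interval -0.33 to 0.03). Mrc1 was at 23.9, 28.0 and 33.3 CPM at 30°C and at 23.0, 26.8 and 31.5 CPM at 8°C (-0.07, interval -0.28 to 0.13). Cd68 was at 3.00, 6.82 and 8.37 CPM at 30°C and at 4.93, 6.96 and 7.79 CPM at 8°C, and its difference of 0.05 (interval -0.30 to 0.41) turned to -0.10 without m6 at 30°C.

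**Figure D3:**
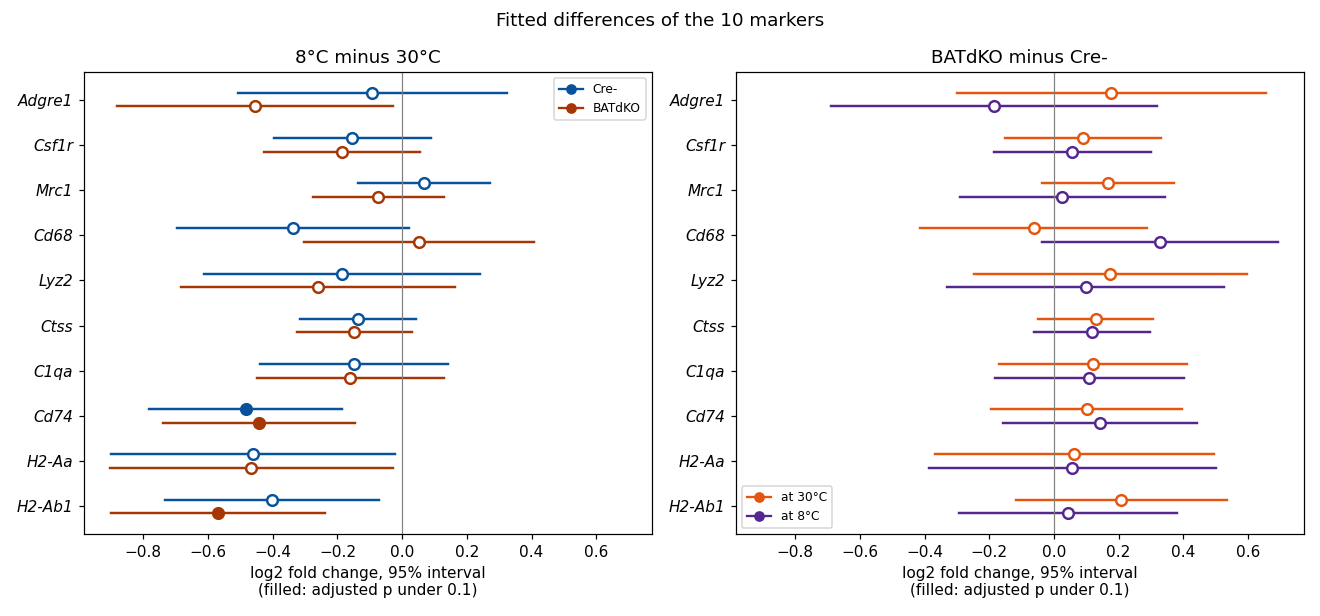
Fitted log2 fold changes of the 10 markers with 95% intervals, for 8°C minus 30°C within each genotype (left) and BATdKO minus Cre- at each temperature (right), filled where the adjusted p was under 0.1. Cd74 is filled in both genotypes and H2-Ab1 in mice labelled BATdKO on the left, and 0 markers are filled on the right.

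The cold difference was also averaged over both genotypes in the same model, a comparison added after the data were seen. Of 10 members 3 were called lower, the class II genes, and 0 higher, beside 930 of 12485 genes called lower, 7.45%. Cd74 was 27.4% lower (log2 fold change -0.46, SE 0.103, adjusted p = 0.00276), H2-Ab1 28.6% lower (-0.49, SE 0.114, adjusted p = 0.00471) and H2-Aa 27.5% lower (-0.46, SE 0.151, adjusted p = 0.045). The other 7 members ranged from -0.27 (Adgre1, adjusted p = 0.253) to -0.004 (Mrc1, adjusted p = 0.994). Mrc1 thus had an interval of 9.73% lower to 10.2% higher in the cold, and Csf1r one of 21.1% lower to 0.0386% higher.

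The summed level of the class II members was set beside that of the receptors Adgre1, Csf1r and Mrc1 in each library, as a description. Csf1r (mean 61.3 CPM) made up most of the receptor sum (mean 90.8 CPM), and Adgre1 (3.23 CPM) little. In mice labelled BATdKO the log2 fold change in the cold was -0.46 for Adgre1, -0.19 for Csf1r and -0.07 for Mrc1, beside -0.44 for Cd74. Class II over receptors was 1.07, 1.14 and 1.91 (lowest, median and highest) in mice labelled Cre- at 30°C and 0.843, 0.969 and 1.30 at 8°C. In mice labelled BATdKO it was 0.877, 1.35 and 1.81 at 30°C and 0.866, 1.10 and 1.22 at 8°C. The medians were lower in the cold in both genotypes and the ranges overlapped. The summed receptors had medians of 87.0 and 80.2 CPM in mice labelled Cre- and of 95.3 and 84.9 CPM in mice labelled BATdKO at 30°C and 8°C.

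Genotype was compared at each temperature, as the libraries labelled BATdKO minus those labelled Cre-, and these signs hold only as far as the labels do. At 8°C, where brown adipocytes are active, 0 of 10 members were called in either direction, beside 227 of 12485 tested genes, 1.82%. At an unadjusted p under 0.05 the count of members was 0, beside 1153 of 12485 tested genes, and DESeq2 also called 0 members. The log2 fold changes ran from -0.18 (Adgre1, interval -0.69 to 0.32) to 0.33 (Cd68, interval -0.04 to 0.69, adjusted p = 0.627). Cd68 was at 4.03 to 6.86 CPM in Cre- and 4.93 to 7.79 CPM in mice labelled BATdKO in the cold. Of the class II genes, Cd74 differed by 0.14 (interval -0.16 to 0.44), H2-Aa by 0.06 (-0.39 to 0.50) and H2-Ab1 by 0.04 (-0.29 to 0.38), so that increases of these sizes could not be told from 0 with 6 mice a group. At 30°C, 0 of 10 members were called, beside 0% of tested genes. At that temperature 1303 genes and 0 members had an unadjusted p under 0.05, and DESeq2 called 90 genes and 0 members. The members ran from -0.06 (Cd68) to 0.21 (H2-Ab1, interval -0.12 to 0.53), and the smallest unadjusted p was that of Mrc1, 0.106, at 0.17 (interval -0.04 to 0.37).

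The difference between genotypes in the response to cold was tested as an interaction. Of the 10 members 0 were called, beside 12 of 12485 genes, 0.0961%. An unadjusted p under 0.05 was found for 0 members, beside 1005 of 12485 genes, and DESeq2 called 0 members. The values ran from -0.36 (Adgre1, interval -1.06 to 0.33) to 0.39 (Cd68, interval -0.12 to 0.90). For H2-Ab1, called in the cold in mice labelled BATdKO and not in mice labelled Cre-, the interaction was -0.17 (interval -0.64 to 0.30, adjusted p = 0.902). A difference between genotypes in its response was therefore not shown. Averaged over both temperatures, a comparison also added after the data were seen, the difference under the labels was positive in 9 of 10 members, up to 0.14 (Lyz2), beside 48.4% of all tested genes. Of the members 0 were called (smallest adjusted p 0.469), beside 358 of 12485 genes, 2.87%.

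Other genes of the class II pathway were taken from a list, of which 10 of 13 were in the table. In mice labelled Cre- 2 of 10 were lower in the cold, H2-Eb1 and H2-DMa, and 0 higher, beside 3.59% and 5.57% of all tested genes. H2-Eb1, the other class II beta chain, was at 24.6, 30.6 and 44.9 CPM at 30°C and at 21.2, 24.8 and 30.9 CPM at 8°C (log2 fold change -0.40, SE 0.131, adjusted p = 0.0661). H2-DMa, part of the chaperone that exchanges the invariant chain peptide, went from 3.45, 4.56 and 6.22 to 2.09, 2.70 and 4.43 CPM (-0.61, SE 0.207, adjusted p = 0.0787). In mice labelled BATdKO 2 of 10 were lower, H2-Eb1 and Ciita, and 0 higher, beside 3.31% and 3.76% of all tested genes. H2-Eb1 fell by 0.48 on the log2 scale (SE 0.132, adjusted p = 0.0319), from 23.3, 32.8 and 41.3 CPM to 21.7, 23.9 and 25.4 CPM. Ciita, the co-activator of class II transcription, was at 2.45, 3.54 and 5.23 CPM at 30°C and 0.978, 2.12 and 2.76 CPM at 8°C (-0.80, SE 0.218, adjusted p = 0.0326). In mice labelled Cre- Ciita had a log2 fold change of -0.32 (adjusted p = 0.438). Other genes of the list had positive values. Ifi30, a thiol reductase of lysosomes, was at 0.19 in Cre- and 0.29 in mice labelled BATdKO (log2 fold change), Rfxank at 0.19 in both, and Ctsl at 0.05 and 0.21, with 0 of these called. The list median was -0.28 in Cre- and -0.12 in mice labelled BATdKO.

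**Figure D4:**
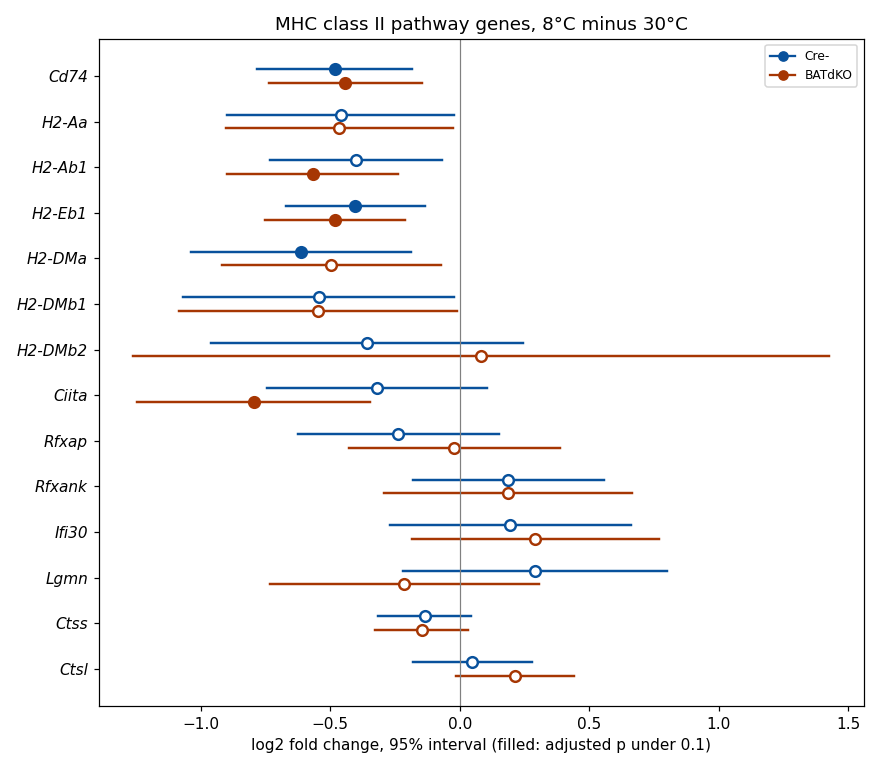
Log2 fold change for 8°C minus 30°C with 95% intervals for 14 genes of the class II pathway, the members and the listed genes together, in Cre- (blue) and BATdKO (orange) mice, filled where the adjusted p was under 0.1. The class II chains, their chaperones and Ciita lie on the negative side in both genotypes except H2-DMb2, and Rfxank, Ifi30 and Ctsl lie on the positive side in both.

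Of 20 tested genes of a second macrophage list, 1 was lower in the cold in mice labelled Cre- and 2 in mice labelled BATdKO, with 0 higher, beside 3.59% and 3.31% of all tested genes called lower. The single call in mice labelled Cre- is a share near that of all genes. Cx3cr1, the fractalkine receptor of monocytes and macrophages, was at 1.37, 3.04 and 5.56 CPM at 30°C and 0.649, 2.01 and 2.68 CPM at 8°C in mice labelled Cre- (log2 fold change -1.15, SE 0.302, adjusted p = 0.0189). In mice labelled BATdKO it went from 4.28, 4.90 and 8.02 to 1.39, 2.60 and 3.56 CPM, with no overlap between the groups (-1.11, SE 0.281, adjusted p = 0.0191). Ccr2, the receptor by which monocytes leave the blood, was lower in the cold in mice labelled BATdKO (-1.29, SE 0.395, adjusted p = 0.0617), at 1.86 to 7.67 CPM at 30°C and 0.978 to 2.14 CPM at 8°C. The list medians were -0.16 in Cre- and -0.09 in mice labelled BATdKO. C1qb and C1qc, the partner chains of C1qa, kept overlapping ranges, C1qb having medians of 42.1, 36.4, 42.7 and 39.1 CPM and C1qc of 14.4, 14.3, 15.9 and 14.5 CPM in mice labelled Cre- at 30°C and 8°C and mice labelled BATdKO at 30°C and 8°C. Of 11 tested genes of resident and tissue-repair macrophages, 1 was lower in the cold in mice labelled Cre- and 0 in mice labelled BATdKO, with 0 higher. The shares of all tested genes called lower are the 3.59% and 3.31% given above. The called gene was Retnla, a secreted product of alternatively activated macrophages (-1.58, SE 0.443, adjusted p = 0.0291). It was at 4.69, 16.4 and 55.3 CPM at 30°C and 3.07, 5.84 and 15.7 CPM at 8°C. In mice labelled BATdKO it was at 5.99 to 18.1 CPM and 2.54 to 8.44 CPM (-1.16, adjusted p = 0.185).

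Of 9 tested genes of a list for lipid-associated macrophages, 5 were higher at 8°C than at 30°C in mice labelled Cre- (Fabp5, Ctsd, Lipa, Plin2 and Acp5) and 4 in mice labelled BATdKO (Lpl, Lipa, Plin2 and Acp5), with 0 lower, beside 5.57% and 3.76% of all tested genes called higher. Plin2, a lipid droplet coat protein, rose by 0.44 (adjusted p = 0.00457) in Cre- and 0.47 (adjusted p = 0.0033) in mice labelled BATdKO on the log2 scale, and Lipa, the lysosomal acid lipase, by 0.33 (adjusted p = 0.0114) and 0.39 (adjusted p = 0.00284). Adipocytes and hepatocytes also express Lpl, Lipa and Plin2, and Spp1 and Lgals3 of the same list, at 0.04 and -0.27 in Cre- and -0.25 and -0.42 in mice labelled BATdKO, were not called. Trem2, Gpnmb and Itgax of this list had no value here. Between the labels at 8°C, 1 gene of the list was called higher in mice labelled BATdKO and 0 lower, beside 1.82% of all tested genes called in either direction. Of 9 tested cathepsins, Ctsz was higher in the cold in both genotypes (0.67, adjusted p = 0.0459, and 0.75, adjusted p = 0.0271) and Ctsd in mice labelled Cre- (0.27, adjusted p = 0.0667). These calls stand beside the same 5.57% and 3.76% of all tested genes. The member Ctss was at -0.14 and -0.15. Of 12 class I pathway genes, 1 was called lower in each genotype, beside 3.59% and 3.31% of all tested genes. They were the immunoproteasome subunit gene Psmb10 in mice labelled Cre- (-0.49, adjusted p = 0.0027) and the peptide-loading factor Tapbp in mice labelled BATdKO (-0.30, adjusted p = 0.0855).

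Of 6 tested growth factors and chemokines, Cxcl12 rose in the cold in both genotypes (0.41, adjusted p = 0.00292, and 0.49, adjusted p = 0.000629), beside 5.57% and 3.76% of all tested genes called higher. Csf1, the ligand of the receptor encoded by the member Csf1r, was the 1 gene of this list called between the genotype labels at 8°C, beside 1.82% of all tested genes. It was at 1.01, 2.24 and 2.41 CPM in Cre- and 2.61, 3.24 and 4.70 CPM in mice labelled BATdKO, with no overlap (log2 fold change 0.79, SE 0.219, adjusted p = 0.0792). Csf1r itself was at 48.2 to 67.6 and 53.6 to 72.7 CPM in the same mice (0.06, interval -0.18 to 0.30). Of 5 tested inflammatory genes 0 were called in either cold comparison or at 8°C between genotypes.

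Markers of other cells that carry class II or could accompany macrophages were looked up beside these results. Of all tested genes, 3.59% were called lower and 5.57% higher in the cold in mice labelled Cre-. In mice labelled BATdKO these shares were 3.31% and 3.76%, and 1.82% were called between the labels at 8°C. Of 4 tested B cell markers, Ighm, the IgM heavy chain, was higher in mice labelled BATdKO than in mice labelled Cre- at 8°C (1.46, SE 0.157, adjusted p = 5.07e-06) and 0 were lower, with 13.1 to 27.5 against 6.82 to 8.52 CPM. Ighm rose in the cold in mice labelled BATdKO (1.01, adjusted p = 0.000128), where H2-Ab1 and Cd74 were lower. Of the 4 B cell markers, 2 had positive and 2 negative fitted values there, with a list median of -0.03. Group means at 30°C and 8°C were 14.8 and 15.9 CPM for Igkc, 1.71 and 1.51 for Cd37, and 1.76 and 1.59 for Cr2. Cd79a, Cd79b and Ms4a1 had no value here. The summed B cell markers were at 22.5 to 42.8, 22.3 to 27.1, 22.4 to 30.2 and 31.3 to 48.1 CPM in mice labelled Cre- at 30°C and 8°C and in mice labelled BATdKO at 30°C and 8°C. Of 4 tested dendritic cell markers, Fscn1 was lower in the cold in mice labelled Cre- (-0.64, adjusted p = 0.0763) and 0 were called in mice labelled BATdKO, the summed level being 74.5 to 180 and 86.5 to 149 CPM in mice labelled Cre- and 68.0 to 150 and 81.2 to 149 CPM in mice labelled BATdKO. Cst3 made up most of this sum, with group means of 87.6 to 103 CPM. Of the T cell, neutrophil and mast cell lists, 1, 2 and 1 genes were tested and 0 were called in these comparisons. Of 8 endothelial markers, Kdr was higher in the cold in both genotypes (0.44 and 0.30) and Pecam1 in mice labelled Cre- (0.46). Of 8 stromal markers, Pdgfra and Col3a1 were lower in the cold in mice labelled BATdKO (-0.84, adjusted p = 0.0841, and -0.73, adjusted p = 0.099). Of 11 brown adipocyte markers, 5 rose and Adipoq fell in the cold in both genotypes, and Adrb3 was lower in mice labelled BATdKO at 8°C. Of 8 muscle markers, Actn3 was lower in the cold in mice labelled Cre-, the summed muscle level spanning 2.47 to 7207 CPM at 30°C and 2.88 to 1300 CPM at 8°C. The part of these cells in the class II differences was not tested.

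The Kupffer cell markers were used for a fit with their mean log2 CPM as a covariate, added after the data were seen. Vsig4, Cd5l, Marco and Timd4 of these markers also stand on the macrophage lists, so that this fit cannot separate macrophages of liver from those of BAT. Cd74 then differed by -0.48 in Cre- (adjusted p = 0.0508) and -0.44 in mice labelled BATdKO (adjusted p = 0.0727), and H2-Ab1 by -0.57 in mice labelled BATdKO (adjusted p = 0.0291). The 1 and 2 calls in the cold were as before. Csf1r and C1qa were then at -0.08 and -0.06 in mice labelled Cre-, from -0.15 each, and at -0.17 and -0.15 in mice labelled BATdKO. With the log2 ratio of Apoa1 to Alb as a covariate instead, 4 members were called lower in mice labelled Cre-, Cd68 (-0.43, adjusted p = 0.0946), Cd74 (-0.45, adjusted p = 0.0411), H2-Aa (-0.60, adjusted p = 0.0192) and H2-Ab1 (-0.43, adjusted p = 0.0956). In mice labelled BATdKO 2 were called in that fit, H2-Aa (-0.64, adjusted p = 0.0212) and H2-Ab1 (-0.60, adjusted p = 0.0265), and Cd74 was at -0.37 (adjusted p = 0.141). Csf1r and C1qa were near 0 in that fit, at -0.06 and -0.04 in mice labelled Cre- and at -0.03 and 0.04 in mice labelled BATdKO.

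The members did not vary as a single block among mice of the same group. Correlations were taken over the 24 libraries on log2 CPM after subtracting group means, as a description, since the libraries share tissue composition and normalization. Over the 45 pairs of members the median Pearson r was 0.31, from -0.46 to 0.91, and 8 pairs were below 0. Lyz2 and H2-Aa were the closest pair (r = 0.91, Spearman rho = 0.81, and r = 0.83 without the 2 libraries farthest from the median). Csf1r and C1qa followed (r = 0.78, rho = 0.62, 0.69 without 2), then Cd74 and H2-Ab1 (r = 0.72, rho = 0.70, 0.53 without 2). Csf1r and H2-Aa were at the other end (r = -0.46, rho = -0.50). The pairs Lyz2 with H2-Aa and Csf1r with C1qa came from different roles, a lysozyme with a class II chain and a receptor with a complement chain.

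Measures of the libraries moved with these pairs. Csf1r and C1qa had r = 0.79 and r = 0.82 with the log2 ratio of Apoa1 to Alb (0.73 and 0.75 without the 2 farthest libraries) and r = 0.60 and r = 0.59 with the mean of the Kupffer cell markers. H2-Aa and Cd68 had r = -0.62 and r = -0.61 with the Apoa1 to Alb ratio (-0.39 and -0.23 without 2), and Mrc1, Ctss and H2-Ab1 lay between 0.04 and 0.22. Csf1r had r = -0.68 with Ucp1. The ratio of Lyz2 to Csf1r CPM was lowest in BATdKO 30°C m6, 0.252, and up to 1.07 in the other mice of that group.

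**Figure D5:**
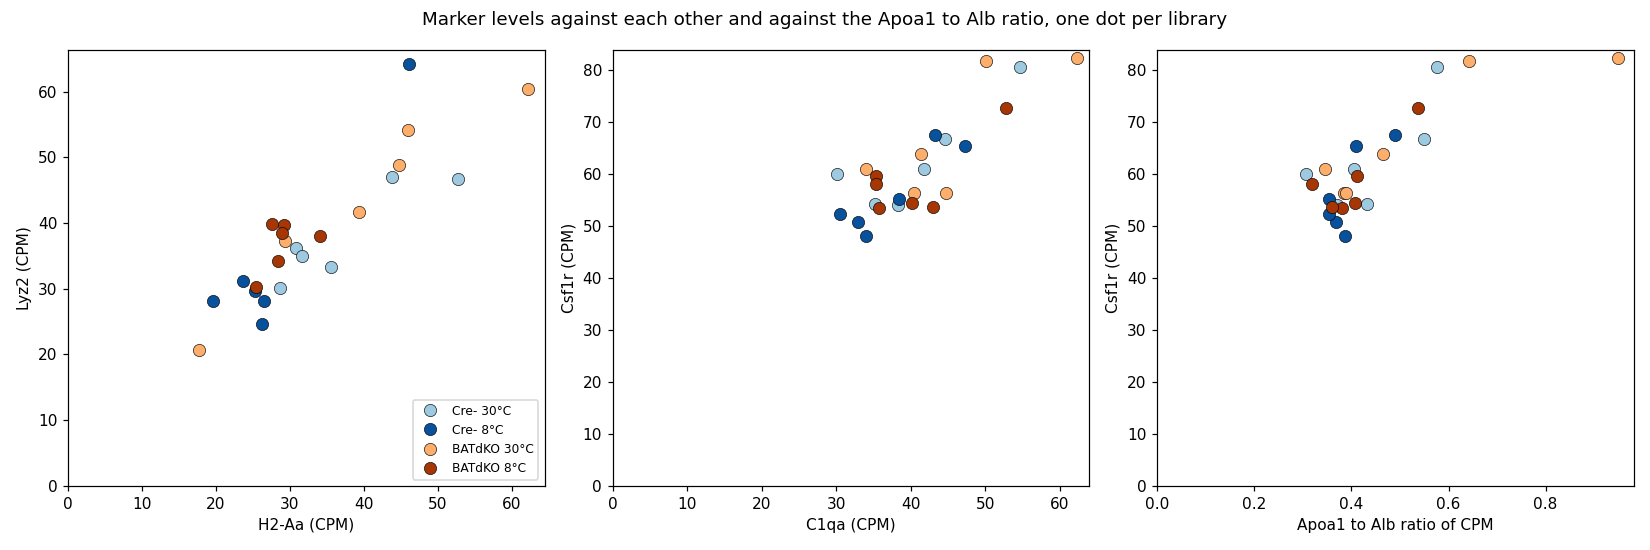
CPM of Lyz2 against H2-Aa (left), Csf1r against C1qa (middle) and Csf1r against the ratio of Apoa1 to Alb CPM (right) on linear axes, with 1 dot per library coloured by group. In each panel high values go with high values, and the dot at the far right of the right panel is BATdKO 30°C m6, with a ratio of 0.949.

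The genes most like 6 of the members across all 12485 tested genes were listed by the same group-centred Pearson r over 24 libraries. For H2-Ab1 these were Clec10a (0.86), Rbm3 (0.84), Clec7a (0.83), 9930111J21Rik2 (0.80) and H2-Eb1 (0.80), with Clec10a and Clec7a encoding lectins of myeloid cells. For Lyz2 they were H2-Aa (0.91), Lcp1 (0.83), Rnf19b (0.81), Gm17786 (0.79) and Tjap1 (0.76), Lcp1 being the leukocyte form of plastin. For Cd74 they were Timp2 (0.82), Csrp1 (0.80), Cbr2 (0.79), Gm8624 (0.78) and Atp2b1 (0.77). For Adgre1 they were Trerf1 (0.82), Gm47260 (0.81), Itgam (0.79), Sccpdh (0.77) and Ddx49 (0.76), Itgam encoding the integrin CD11b. For C1qa they were Fis1 (0.88), AC124513.1 (0.87), Gm2000 (0.86), Rplp1 (0.85) and Wdr89 (0.85), and for Mrc1 Amz2 (0.74), Gab3 (0.73), Gm5859 (0.72), Pop4 (0.69) and Gak (0.69). Itgam, H2-Aa, Clec10a and H2-Eb1 were the genes among these that also stood on the macrophage and class II lists.

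The positions come from GENCODE vM21 on GRCm38. The class II genes H2-Aa (chr17:34282744-34287823, minus strand) and H2-Ab1 (chr17:34257689-34269419, plus strand) lie close together on opposite strands, and Adgre1 lies on the same chromosome at chr17:57358691-57483527. Cd74 (chr18:60803848-60812652) and Csf1r (chr18:61100598-61132149) share a chromosome and the plus strand. Cd74 shares exon sequence with Mir5107 on its own strand and Csf1r with Hmgxb3 on the other strand, and strand counting is not stated, so that reads of Csf1r and Hmgxb3 could be mixed. Mrc1 (chr2:14229392-14332057), Cd68 (chr11:69664213-69666153), Lyz2 (chr10:117277331-117282321), Ctss (chr3:95526786-95556403) and C1qa (chr4:136895917-136898803) had no annotated exon overlap with another gene on either strand.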

How the data were processed

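Libraries of 3′ tags were made from BAT of 24 mice, 6 per group. The authors trimmed forward reads, used STAR to align to GRCm38 and Rsubread to sum by gene, and deposited raw counts for 12615 genes. The annotation release, the strand setting and the rule for listing genes are not stated. Outliers were removed in the study and not named there, so all 24 libraries were used. Mouse names m1 to m6 follow the label numbers, which pair no mice.

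Of the identifiers, 12608 were matched to symbols. The deposited counts were fitted in R 4.3.3 with edgeR 4.0.16 (limma 3.58.1): TMM, filterByExpr (130 genes removed), glmQLFit with 1 mean per group and 20 residual degrees of freedom, glmQLFTest, Benjamini-Hochberg adjustment over 12485 genes, threshold 0.1. Standard errors come from the F statistic, and were enlarged where edgeR set the p by a Poisson bound. CPM uses TMM library sizes, and log2 CPM a prior count of 2. The test was checked on simulated data. DESeq2 1.42.0 was an alternative. The p-values measure spread between mice.

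The 10 members and all gene lists were chosen with earlier results of these data known. Named are all members, Tbl1xr1, Tbl1x and Ucp1, up to 3 called genes per list, direction and comparison with the smallest p, and the 5 genes most like each of 6 members. The other genes named, among them both added lists (hepatocyte and Kupffer cell genes), were chosen after their values were seen. Promoters are from RefSeq.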

Additional observations from a re-analysis of the deposited data

Results flagged for a closer look

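For normally distributed values, chance alone puts about 1 group in 20 past the criterion for a sample that stands apart. Here 5 of the 40 groups of 6 mice did so, by the gap between 1 mouse and the nearest other as a share of the whole range. The groups of different genes hold the same mice, so that these shares cannot be weighed against each other. Mouse m2 of the Cre- 8°C group was the highest of its group for Lyz2 (64.22 CPM, gap 0.835 of the range), H2-Ab1 (39.14 CPM, 0.815) and H2-Aa (46.16 CPM, 0.742). The same mouse had the lowest Ucp1 of its group (968 CPM) and the highest Mup share (15.9%). Their part in its marker levels was not tested. BATdKO 8°C m6 was highest for Ctss (30.71 CPM, 0.821) and BATdKO 8°C m5 for Csf1r (72.74 CPM, 0.681). The latter mouse also had the highest C1qa (52.86 CPM) and Apoa1 to Alb ratio (0.538) of its group.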

How the results depend on the processing

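The counts of members called were the same as reported under DESeq2, RLE normalization and robust dispersion, and with no filter or a mean count of at least 10. With only the groups of the comparison in the fit, members called in the cold in mice labelled Cre- were 0. Leaving out each of the 24 mice in turn gave 0 to 3 members called in the cold in mice labelled Cre- and 0 to 2 in mice labelled BATdKO, and 0 for genotype and for the interaction. The genes called ranged over 574 to 1069 for the cold in mice labelled BATdKO, 138 to 276 for genotype at 8°C, 0 to 369 for genotype at 30°C and 7 to 37 for the interaction. The 0 at 30°C became 369 without Cre- 30°C m6, 67 without Cre- 30°C m2, 47 without BATdKO 30°C m4 and 41 without BATdKO 30°C m6. Genotype at 8°C called 477 genes with only its groups in the fit. At 30°C DESeq2 called 90 genes, and for the interaction DESeq2 called 51 and robust dispersion 21.

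Other alternatives were added after seeing the data. Averaging over the other factor called 1945 genes and 3 members in the cold and 358 genes by genotype, with Mrc1 at -0.004 and Cd68 at -0.142 in the cold and Adgre1 at -0.003 and Cd68 at 0.133 by genotype. Without m6 of both genotypes at 30°C, 500 genes were called by genotype at 30°C and 44 in the interaction. The log2 fold change was then -0.096 for Cd68 in the cold in mice labelled BATdKO, -0.024 for Csf1r, -0.024 for C1qa and 0.084 for Cd68 by genotype at 30°C, and 0.078 for Csf1r and 0.132 for C1qa in the interaction. With the Kupffer cell markers as a covariate, 63 genes were called by genotype at 30°C and 42 in the interaction, Csf1r was at -0.001 by genotype at 8°C and H2-Aa at 0.052 in the interaction. With the Apoa1 to Alb ratio as a covariate, 4 members were called in the cold in mice labelled Cre-, 425 genes by genotype at 8°C, 273 at 30°C and 63 in the interaction. In that fit Cd68 was at -0.069 and C1qa at 0.04 in the cold in mice labelled BATdKO, and Csf1r at 0.035 and C1qa at 0.08 in the interaction. DESeq2 gave Ctss 0.004 in the interaction. The cause of these changes was not tested.

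The members that changed sign in some fit without 1 mouse had log2 fold changes in these ranges. In the cold, Adgre1 ran from -0.177 to 0.038 in mice labelled Cre- and Cd68 from -0.095 to 0.14 in mice labelled BATdKO. For genotype at 8°C the ranges were Csf1r -0.014 to 0.115, Mrc1 -0.028 to 0.068, H2-Aa -0.026 to 0.255, H2-Ab1 -0.009 to 0.204. For genotype at 30°C the ranges were Cd68 -0.15 to 0.079, H2-Aa -0.101 to 0.212. For the interaction the ranges were Csf1r -0.13 to 0.032, Lyz2 -0.222 to 0.194, Ctss -0.059 to 0.059, C1qa -0.114 to 0.101, Cd74 -0.109 to 0.128, H2-Aa -0.158 to 0.192. None of them was called. The depth limits Adgre1 and Cd68 most, which had as few as 1 and 6 counts in the shallowest library. No paired analysis was possible because the mouse numbers pair no mice between groups.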
